A study of Mus musculus with 7 samples.

Results

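Open chromatin was examined at 5 genes of the ectodysplasin pathway in mouse tooth tissues: Edar, Edaradd, Tnfrsf19, Traf6 and Foxi3. Each gene was taken with 50 kb on either side of its body, and every ATAC-seq peak that touched this window was counted. The 5 genes are 5 of 20665 autosomal protein-coding genes, and their windows held 99 of the 128642 accessible regions obtained when the autosomal peaks of all 7 libraries were merged.

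ATAC-seq marks DNA that a transposase can cut, and thus chromatin that is open in some of the cells sampled. Of the 7 libraries, 2 came from ectoderm of the first pharyngeal arch of mouse embryos on embryonic day 11.5, separated from the mesenchyme with Dispase II. A further 2 came from Sox2-positive cells of the labial cervical loop, the niche of the dental epithelial stem cells, of the lower incisor on postnatal day 2. These cells were sorted from Sox2-GFP mice, in which the endogenous Sox2 promoter drives GFP, so a sorted cell is one with reporter fluorescence, and the Sox2-positive cells are also called the sorted cells. The last 3 were a whole lower incisor, a lower first molar and an upper first molar, all from postnatal day 2, with 1 library each. The labels give no strain, sex or other allele, and do not say whether animals were pooled or whether the replicates came from separate litters. The 5 postnatal libraries differ from the ectoderm in age, tissue and dissection at once, and these cannot be told apart.

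The authors called peaks in each library separately. The autosomal lists held 80850 and 49719 peaks for ectoderm replicates 1 and 2, 41829 and 38326 for Sox2-positive replicates 1 and 2, 62074 for the incisor, 68877 for the lower molar and 67193 for the upper molar. Read depth is not in the peak lists and is unknown here. Counts were therefore also taken from the 38000 peaks with the smallest p-values in each library, which is 47.0% to 99.1% of a list. A two-sided exact permutation test of 2 libraries against 2 cannot give a p below 0.333, and no difference between groups was tested. Counts over the 5 genes are set beside the same count over all regions or genes where that was taken.

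Tissue labels were compared with peaks within 1 kb of the starts of marker genes. Starts of 4 of 5 epithelial markers (Krt5, Krt14, Cdh1 and Epcam) had a peak in every library, and Trp63, counted at either end of the gene, had none in any. Of 6 mesenchymal markers, 4 and 5 had a start peak in the ectoderm libraries and 6 of 6 in each postnatal library, the sorted cells included. Pdgfra had one in all 5 postnatal libraries and in neither ectoderm library. Of 2 enamel matrix genes, Ambn had one in the same 5 libraries and Enam in both molars alone. Of 4 endothelial markers 1 or 2 had a peak in each library, with Pecam1 and Tek at 0, and of 4 blood markers 1 or 2, with Ptprc at 0. Of 3 Schwann and neural markers 1 or 2 had one, with Sox10 at 0. An open start is not expression, and in bulk tissue fewer cells of a type and less opening per cell cannot be told apart. The part of mesenchymal cells in the differences between ectoderm and postnatal libraries was not tested.

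Ectodysplasin (Eda) is a ligand of the tumour necrosis factor family that signals within the ectoderm to form teeth, hair and sweat glands. It binds the receptor Edar, whose death domain recruits the adaptor Edaradd. Traf6, a ubiquitin ligase, carries the signal on toward the IkB kinases, and NF-kB factors then enter the nucleus. Tnfrsf19, also called Troy, is a related receptor present in the same skin and tooth epithelium. Foxi3 is a forkhead transcription factor of ectodermal placodes that lies downstream of ectodysplasin signalling. Loss of Eda, Edar or Edaradd causes hypohidrotic ectodermal dysplasia, in which teeth are missing or peg-shaped.

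The starts of all 5 genes were open in all 7 libraries. Across the genome 56.5% of the 16457 genes with a listed start had a start peak in every library. In lists of 38000 peaks the count was 4 of 5, with Foxi3 lost in the incisor, against 52.4% of genes. The 250 bases before 4 of these starts are printed to set a window that peaks covered whole in every library (Foxi3) beside windows covered in part in some libraries (Edar, Edaradd and the downstream start of Tnfrsf19). They come from RefSeq (GRCm38.p6), run 5′ to 3′ along the gene's own strand, and carry matches to the searched motifs in capitals.
Edar, chr10:58675697-58675946, minus strand: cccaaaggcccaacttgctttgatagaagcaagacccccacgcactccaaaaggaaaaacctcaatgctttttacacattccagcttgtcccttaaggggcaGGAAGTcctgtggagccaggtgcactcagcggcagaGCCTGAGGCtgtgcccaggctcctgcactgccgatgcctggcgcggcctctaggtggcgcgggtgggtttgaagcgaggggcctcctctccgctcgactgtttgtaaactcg
Edaradd, chr13:12520451-12520700, minus strand: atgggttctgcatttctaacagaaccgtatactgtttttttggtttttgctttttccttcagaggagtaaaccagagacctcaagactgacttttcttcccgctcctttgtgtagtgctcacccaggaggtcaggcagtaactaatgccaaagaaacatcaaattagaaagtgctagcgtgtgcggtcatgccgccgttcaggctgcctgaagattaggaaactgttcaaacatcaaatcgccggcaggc
Tnfrsf19, downstream start, chr14:61037988-61038237, minus strand: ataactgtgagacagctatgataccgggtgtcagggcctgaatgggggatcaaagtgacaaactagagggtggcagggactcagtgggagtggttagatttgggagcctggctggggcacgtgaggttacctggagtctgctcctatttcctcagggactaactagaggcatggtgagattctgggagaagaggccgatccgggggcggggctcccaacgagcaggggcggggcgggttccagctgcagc
Foxi3, chr6:70956356-70956605, plus strand: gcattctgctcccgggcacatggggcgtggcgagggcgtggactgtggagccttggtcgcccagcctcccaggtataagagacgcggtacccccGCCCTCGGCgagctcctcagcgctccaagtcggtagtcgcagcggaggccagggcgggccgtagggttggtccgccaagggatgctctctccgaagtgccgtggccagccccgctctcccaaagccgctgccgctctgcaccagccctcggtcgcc

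The Foxi3 sequence was the richest in CpG, with 24 CpG dinucleotides and 70.4% G or C, and peaks covered all 250 of its bases in every library. The Edar sequence had 11 CpG dinucleotides and 58.8% G or C. Its 250 bases were covered in full in both ectoderm replicates and over 177 to 189 bases in the postnatal libraries. The Edaradd sequence had 8 CpG dinucleotides and 46% G or C, and 186 to 250 of its bases were covered. Tnfrsf19 has 2 listed starts, and the sequence of the downstream start had 8 CpG dinucleotides and 59.2% G or C. It was covered in full in every library except Sox2-positive replicate 1, where 145 bases were. Of the starts not printed, Traf6 had 186 to 250 bases covered and the upstream start of Tnfrsf19 0 to 250. For comparison, the medians over 31396 listed autosomal promoters of the same length were 6 CpG dinucleotides and 52.4% G or C.

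Motifs were searched on both strands of the sequences before all 6 starts listed for the 5 genes. The AP-2 motif GCCNNNGGC occurred in Edar at position -112 and in Foxi3 at position -156 from the start, and 13.9% of all promoters hold it. The ETS motif GGAAGT occurred in Edar at position -148, and 19.8% of promoters hold it. TTCAAAG (LEF and TCF), TGTTTAC (forkhead), ACAATGG (SOX), TGANTCA (AP-1) and the NF-kB consensus had no match in these 6 windows. Each factor was searched by that string alone. Close variants, such as the ATCAAAG in the downstream Tnfrsf19 sequence, were not searched, so no match does not show that sites are lacking. No searched motifs overlapped in the printed sequences. A match is a string of letters and not a bound site.

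The 5 genes together held 59 and 38 peaks in the ectoderm replicates, 44 and 40 in the Sox2-positive replicates, 55 in the incisor, 56 in the lower molar and 64 in the upper molar. Per 10000 peaks of each list this was 7.30 and 7.64 in ectoderm, 10.5 and 10.4 in the sorted cells, 8.86 in the incisor, 8.13 in the lower molar and 9.52 in the upper molar. With 38000 peaks per library the totals lay between 36 and 40. The whole set thus held nearly the same number in each tissue once list length was equal, and its genes divided differently. The windows were peak-rich. Per 100 kb, the median member held 4.79 to 8.62 peaks in the 7 libraries, and the median protein-coding gene 2.57 to 5.01.

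**Figure D1:**
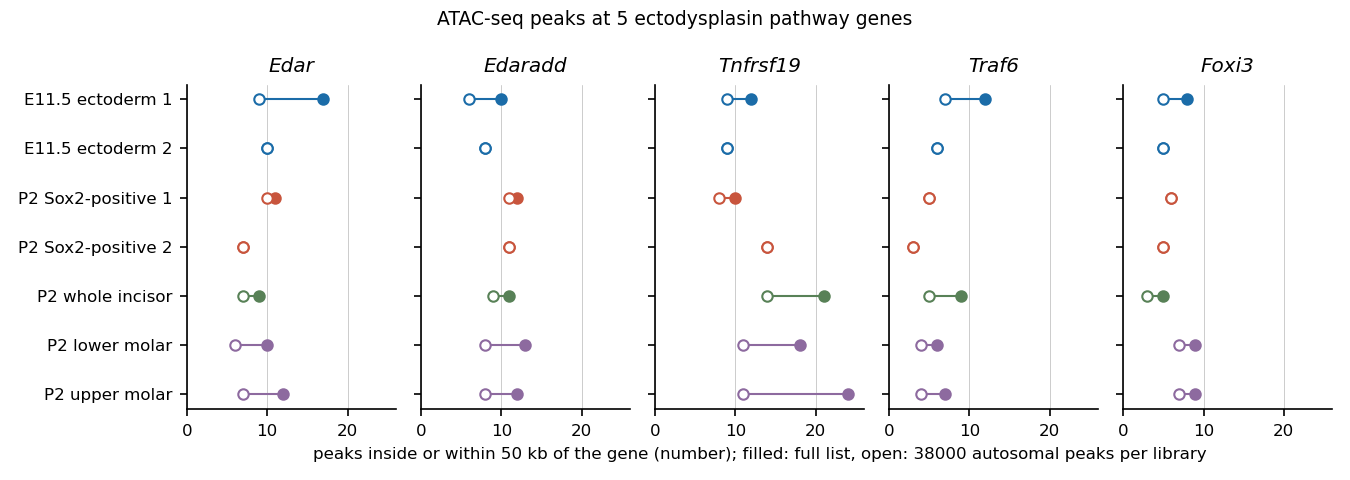
Number of peaks inside or within 50 kb of each of the 5 genes (one panel per gene) in each of the 7 libraries, from the full lists and from 38000 peaks per library. With equal lists Edaradd had 11 peaks in both Sox2-positive libraries and 6 and 8 in ectoderm, and Traf6 had 7 and 6 in ectoderm and 5 and 3 in Sox2-positive cells.

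Peaks at Edar, the receptor, numbered 17 and 10 in ectoderm, 11 and 7 in the sorted cells, 9 in the incisor, 10 in the lower molar and 12 in the upper molar. The ectoderm and Sox2-positive counts overlapped. Tnfrsf19 had 12 and 9 in ectoderm, 10 and 14 in the sorted cells, 21 in the incisor, 18 in the lower molar and 24 in the upper molar. The 3 whole teeth had the highest counts for this receptor. In lists of 38000 the whole teeth had 14, 11 and 11 Tnfrsf19 peaks and Sox2-positive replicate 2 also had 14, so whole teeth no longer stood above the sorted cells.

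For the adaptors, Edaradd had 10 and 8 peaks in ectoderm, 12 and 11 in the sorted cells, 11 in the incisor, 13 in the lower molar and 12 in the upper molar. Some Sox2-positive Edaradd peaks lay in pieces within a single merged region. Counted as regions the full lists gave 10 and 7 in ectoderm and 9 and 8 in Sox2-positive cells, which overlap. In lists of 38000 the regions were 6 and 7 in ectoderm and 8 in each Sox2-positive library, which do not. Traf6 had 12 and 6 in ectoderm, 5 and 3 in the sorted cells, 9 in the incisor, 6 in the lower molar and 7 in the upper molar. Foxi3 had 8 and 5 in ectoderm, 6 and 5 in the sorted cells, 5 in the incisor, and 9 in each molar.

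Traf6 was the 1 gene of 5 with more peaks in both ectoderm libraries than in both Sox2-positive libraries. This order was held by 41.4% of all genes in the full lists and 20.1% in lists of 38000, and Traf6 had it in both. Edaradd was the 1 gene of 5 with the opposite order, against 3.07% of genes in the full lists and 17.6% in lists of 38000, and Edaradd had it in both when peaks were counted, and in lists of 38000 alone when regions were. Among the 5 genes each order was thus held by 1 gene, and the genome share of the opposite order depended strongly on list length.

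Edar lies on the minus strand at chr10:58600780-58675696 (gene ID 13608). Its window held 24 merged regions, and the region with the highest signal was not the same in ectoderm and in postnatal tissue. Signal here is the deposited signal value of a region's strongest peak in a library, which has no stated scale between libraries, so values were compared within a library by their order or their ratio. No list held a peak with a signal below 200. Where a value lies close to 200, presence in 1 library and absence in another rest on a peak near this floor. Position is the distance of a region's centre from the gene's start, positive in the direction of transcription. Edar is 74.9 kb long, so larger positions lie downstream of it. The annotation used gives gene spans without exons, so exon and intron cannot be told.

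In both ectoderm replicates the leading Edar region was chr10:58640502-58642281, at 34.3 kb inside the gene, with signals of 5348 and 4066. It stood among the highest 1.35% and 5.07% of those lists. The same region had 362 in Sox2-positive replicate 1, 645 in the lower molar and 1019 in the upper molar, and no peak in Sox2-positive replicate 2 or the incisor. In all 5 postnatal libraries the leading region was instead chr10:58651180-58653267, at 23.5 kb, 2088 bp wide. Its signals were 2986 and 2284 in Sox2-positive cells, 1699 in the incisor, 4624 in the lower molar and 5218 in the upper molar. In ectoderm it had 2398 and 3069, so it was open there too. The ratio of the first region's signal to the second's was 2.23 and 1.32 in ectoderm, and 0.121 in Sox2-positive replicate 1, 0.139 in the lower molar and 0.195 in the upper molar. In ectoderm replicate 1 the second region was listed as 2 peaks, and with both added that ratio was 1.4 in place of 2.23. The ectoderm ratios lay above all postnatal ones either way, and 2 postnatal libraries had no ratio because the first region had no peak.

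**Figure D2:**
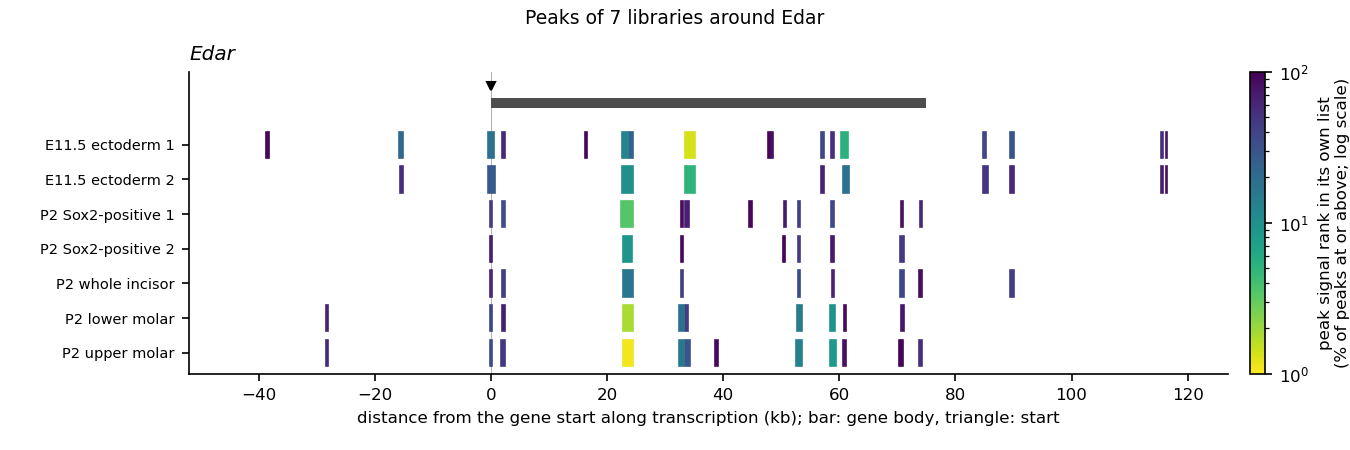
Peaks at Edar, drawn by distance in kb from the gene's start (x axis) for each of the 7 libraries (rows). Colour gives the rank of a peak's signal within its own list, as the percentage of peaks at or above it, on a log scale. Peaks narrower than a line are drawn at the line's width. The region at 34.3 kb is the strongest in both ectoderm rows and the region at 23.5 kb in all 5 postnatal rows.

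Beside the ectoderm-leading region, at 32.8 kb, lay chr10:58642413-58643298, which was open in all 5 postnatal libraries and in neither ectoderm library. Its signals were 248 and 246 in Sox2-positive cells, 692 in the incisor, 1580 in the lower molar and 1777 in the upper molar. The region at 53.1 kb (chr10:58622099-58623188) was listed in the same libraries, with 618 and 628 in Sox2-positive cells, 828 in the incisor, 1821 in the lower molar and 1985 in the upper molar. The last of these, at 70.7 kb (chr10:58604621-58605331), had 274 and 616 in Sox2-positive cells, 808 in the incisor, 315 in the lower molar and 215 in the upper molar. The listed signals of the first pair were highest in the molars and those of the last in the incisor, on values that carry no stated scale between libraries. The region at 58.9 kb (chr10:58616307-58617224) was listed in every library except ectoderm replicate 2, with 2396 and 2605 in molars and 576 in ectoderm replicate 1.

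Edar also carried 7 regions with a peak in both ectoderm replicates and in neither Sox2-positive replicate, of 22 regions present in either group. This was 31.8%, against 23.2% of all regions, and in lists of 38000 it was 5 of 18 (27.8%, against 18.6%). The strongest of the 7, at 61.0 kb (chr10:58614057-58615367), had 3620 and 2085 in ectoderm, 257 and 293 in the molars and no peak in the incisor. The region at -15.4 kb (chr10:58690807-58691449), upstream of the gene, had 1623 and 551 and was listed in no postnatal library. So were those at 85.1 kb (chr10:58590155-58590977, with 901 and 641) and 57.1 kb (chr10:58618324-58618822, with 924 and 427), and a pair inside the neighbouring gene Ccdc138. The region at 89.7 kb (chr10:58585551-58586358) had 1190 and 478 in ectoderm and 665 in the incisor. In the other direction 4 regions had peaks in both Sox2-positive replicates and neither ectoderm replicate (18.2%, against 7.68%). They were the 3 open in all postnatal libraries and chr10:58624921-58625315, at 50.6 kb, which had 331 and 218 in Sox2-positive cells and no peak in any other library. The 218 was near the floor, with 95.3% of that list at or above it. The start peak of Edar (chr10:58675040-58676119) was weaker than the leading region in every library, at 1844 and 1402 in ectoderm, 602 and 370 in the sorted cells, 460 in the incisor, 749 in the lower molar and 885 in the upper molar.

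Tnfrsf19 lies on the minus strand at chr14:60963834-61046855 (gene ID 29820). In ectoderm its upstream start led (chr14:61045457-61047245), with signals of 3699 and 3814. In the postnatal libraries the lead passed to chr14:61056252-61058126, at -10.3 kb, which lies at a listed start of the noncoding gene Gm41168. That region had 3168 and 1898 in Sox2-positive cells, 1994 in the incisor, 3693 in the lower molar and 3836 in the upper molar, and 1618 and 1196 in ectoderm. The ratio of start to upstream region was 2.29 and 3.19 in ectoderm, 0.348 and 0.381 in the sorted cells, 0.86 in the incisor, 0.648 in the lower molar and 0.711 in the upper molar. No ratio in one set reached the other, and the sorted cells had the lowest.

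At the receptors Edar and Tnfrsf19, 2 of 5 genes, 1 region thus led both ectoderm libraries and 1 other led all 5 postnatal libraries. Both genes kept this change of leader when all peaks of a region were added. This pattern was defined after the Edar values had been seen and describes only. It was held by 6.73% of the 16517 genes whose windows held a peak in each of the 7 libraries, and a single leader in all libraries by 52%, a pattern that 0 of 5 genes had. At Traf6 and Foxi3 the ectoderm leader also led in no postnatal library. Their postnatal libraries had 2 different leaders, so neither gene was counted. How many genes of the genome have that looser change was not counted. Genes were not matched for the number of peaks in their windows, and the 5 windows were peak-rich.

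Other Tnfrsf19 regions also differed by tissue. The regions at 32.1 kb (chr14:61014437-61015107) and -31.1 kb (chr14:61077495-61078381) were open in all 5 postnatal libraries and in neither ectoderm library. The first had 905 and 768 in Sox2-positive cells, 1218 in the incisor, 1479 in the lower molar and 1555 in the upper molar. The second had 501 and 260 in Sox2-positive cells, 1141 in the incisor, 1726 in the lower molar and 1481 in the upper molar. The 1 region of 21 with the opposite pattern, present in both ectoderm replicates and in neither Sox2-positive replicate, lay at 41.5 kb (chr14:61004861-61005898). It had 1699 and 1128 in ectoderm, 213 in the incisor, 253 in the lower molar and 292 in the upper molar. Beyond the gene's end, the region at 129 kb (chr14:60916640-60918125) had 2373 and 1689 in ectoderm against 408 in Sox2-positive replicate 2, 423 in the incisor and 219 in the upper molar. The 4 Tnfrsf19 regions open in all libraries were both starts, the -10.3 kb region and the region at 34.2 kb inside the gene (chr14:61012066-61013296).

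The Sox2-positive replicates differed at Tnfrsf19. Of 17 regions seen in either, 6 were in both (35.3%), 3 in replicate 1 alone and 8 in replicate 2 alone. All 8 of the latter and all 3 of the former had a peak in the whole incisor. Genome-wide this held for 82.2% of the regions in replicate 2 alone and 56.7% of those in replicate 1 alone. With lists of 38000 the share in both was 40%. Chr14:60993404-60993886, at 53.2 kb, was such a region, with 823 in Sox2-positive replicate 2, 1240 in the incisor, 655 in the lower molar and 491 in the upper molar. Over all 5 genes the replicates shared 29 of 47 regions in Sox2-positive cells (61.7%, against 59.7% genome-wide) and 37 of 58 in ectoderm (63.8%, against 59.6%). All 21 unshared ectoderm regions of the full lists were in replicate 1, whose list is longer.

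Edaradd lies on the minus strand at chr13:12471209-12520535 (gene ID 171211). Its start (chr13:12519211-12521094) had signals of 3003 and 2897 in ectoderm, 1193 and 801 in the sorted cells, 870 in the incisor, 1612 in the lower molar and 1991 in the upper molar. The start did not lead in any library. In ectoderm, Sox2-positive cells and incisor the leader was the region over the start of the neighbouring gene Ero1b (chr13:12565196-12566788, at -45.5 kb), with 3819, 3760, 2754, 2412 and 2558. In the molars it was chr13:12541692-12543660, at -22.2 kb and at no annotated start, with 4347 and 4378. That region had 1725 and 1491 in ectoderm, 1820 and 1087 in the sorted cells and 1804 in the incisor. The ratio of the Ero1b region to it was 0.659 and 0.636 in the lower and upper molar and 1.42 to 2.52 in the other libraries, so the molars stood apart from incisor as well as ectoderm. With all peaks of a region added the ratios were 0.659 and 0.685 in the molars and 1.05 to 2.52 in the others, the lowest of which was the incisor.

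Edaradd had 5 of its 14 regions open in all libraries (35.7%, against 14.2% of all regions), the most of the 5 genes. In lists of 38000 this was 5 of 12 (41.7%, against 19.2%). Apart from its own start and those of Ero1b and Lgals8, these were the -22.2 kb region and one at 34.8 kb inside the gene (chr13:12485040-12486213). The latter had 2780 and 2300 in ectoderm, 536 and 425 in the sorted cells, 409 in the incisor, 1609 in the lower molar and 1656 in the upper molar. The region at -7.88 kb (chr13:12527958-12528699) was open in all postnatal libraries and in neither ectoderm library, with 604 and 607 in Sox2-positive cells, 348 in the incisor, 1416 in the lower molar and 1813 in the upper molar. The other Sox2-positive region absent from ectoderm, at 16.9 kb (chr13:12503242-12503774), had 449 and 361 in Sox2-positive cells and 296 and 201 in the molars, without a peak in the incisor. The 1 region with the opposite pattern, over the gene's end (chr13:12470582-12471751), had 1424 and 539 in ectoderm and 352 and 417 in the molars.

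Traf6 lies on the plus strand at chr2:101678420-101701668 (gene ID 22034). Its start led in ectoderm, with 2942 and 2525. The start had 644 and 968 in Sox2-positive cells, 1244 in the incisor, 1253 in the lower molar and 1262 in the upper molar. No other Traf6 region open in all libraries lay in the gene. They were the start of Iftap (chr2:101628403-101629224) and a region in Prr5l (chr2:101751012-101752082), with 2871, 2168, 1183, 1429, 1996, 2000 and 1937 at the first and 2415, 1179, 1490, 1175, 2535, 1381 and 1138 at the second, in the order ectoderm, Sox2-positive cells, incisor, lower molar and upper molar. The 3 regions in both ectoderm and neither Sox2-positive library also lay in Prr5l. Chr2:101715858-101716549 had 1315 and 380, chr2:101739803-101740304 had 1251 and 529, and chr2:101722332-101723478 had 1945 and 1207 with 221 to 468 in the whole teeth. No Traf6 region had the reverse pattern. Within the gene body Traf6 had 1 peak in each ectoderm library and 2 and 1 in the Sox2-positive libraries. The peaks behind the Traf6 order described earlier thus lay outside the gene.

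Foxi3 is a short gene on the plus strand, at chr6:70956606-70961066 (gene ID 232077). Its start (chr6:70956084-70957518) led in ectoderm, with signals of 2690 and 2015, and had 834 and 692 in Sox2-positive cells, 323 in the incisor, 1508 in the lower molar and 1278 in the upper molar. In Sox2-positive cells and molars the leader was chr6:70991694-70992754, at 35.6 kb beyond the start, with 1057 and 964 in Sox2-positive cells, 966 in the incisor, 2750 in the lower molar and 3232 in the upper molar. Neither ectoderm library had a peak there. The region at 19.4 kb (chr6:70975556-70976360) was also in all 5 postnatal libraries and no ectoderm library. It led in the incisor at 1751 and had 513 and 440 in Sox2-positive cells, 813 in the lower molar and 955 in the upper molar. The converse was the region at 11.1 kb (chr6:70967157-70968275), with 1705 and 972 in ectoderm and no postnatal peak. All 3 lie downstream of the gene and at no annotated start.

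The molars had 4 Foxi3 regions that the incisor lacked, of 9 present in any whole tooth (44.4%, against 17.9% of all regions). The incisor had none that both molars lacked, against 13.9% of all regions. Of the 4 molar regions, one at 18.1 kb (chr6:70974489-70974984) had 842 and 462 in ectoderm, 298 and 380 in the sorted cells, 930 in the lower molar and 919 in the upper molar. One at -44.7 kb (chr6:70911474-70912413) had 943 and 813 in ectoderm, 226 in Sox2-positive replicate 1, 639 in the lower molar and 642 in the upper molar. The Foxi3 region open in all libraries beside the start lay at -35.0 kb in Tex37 (chr6:70921069-70922099).

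**Figure D3:**
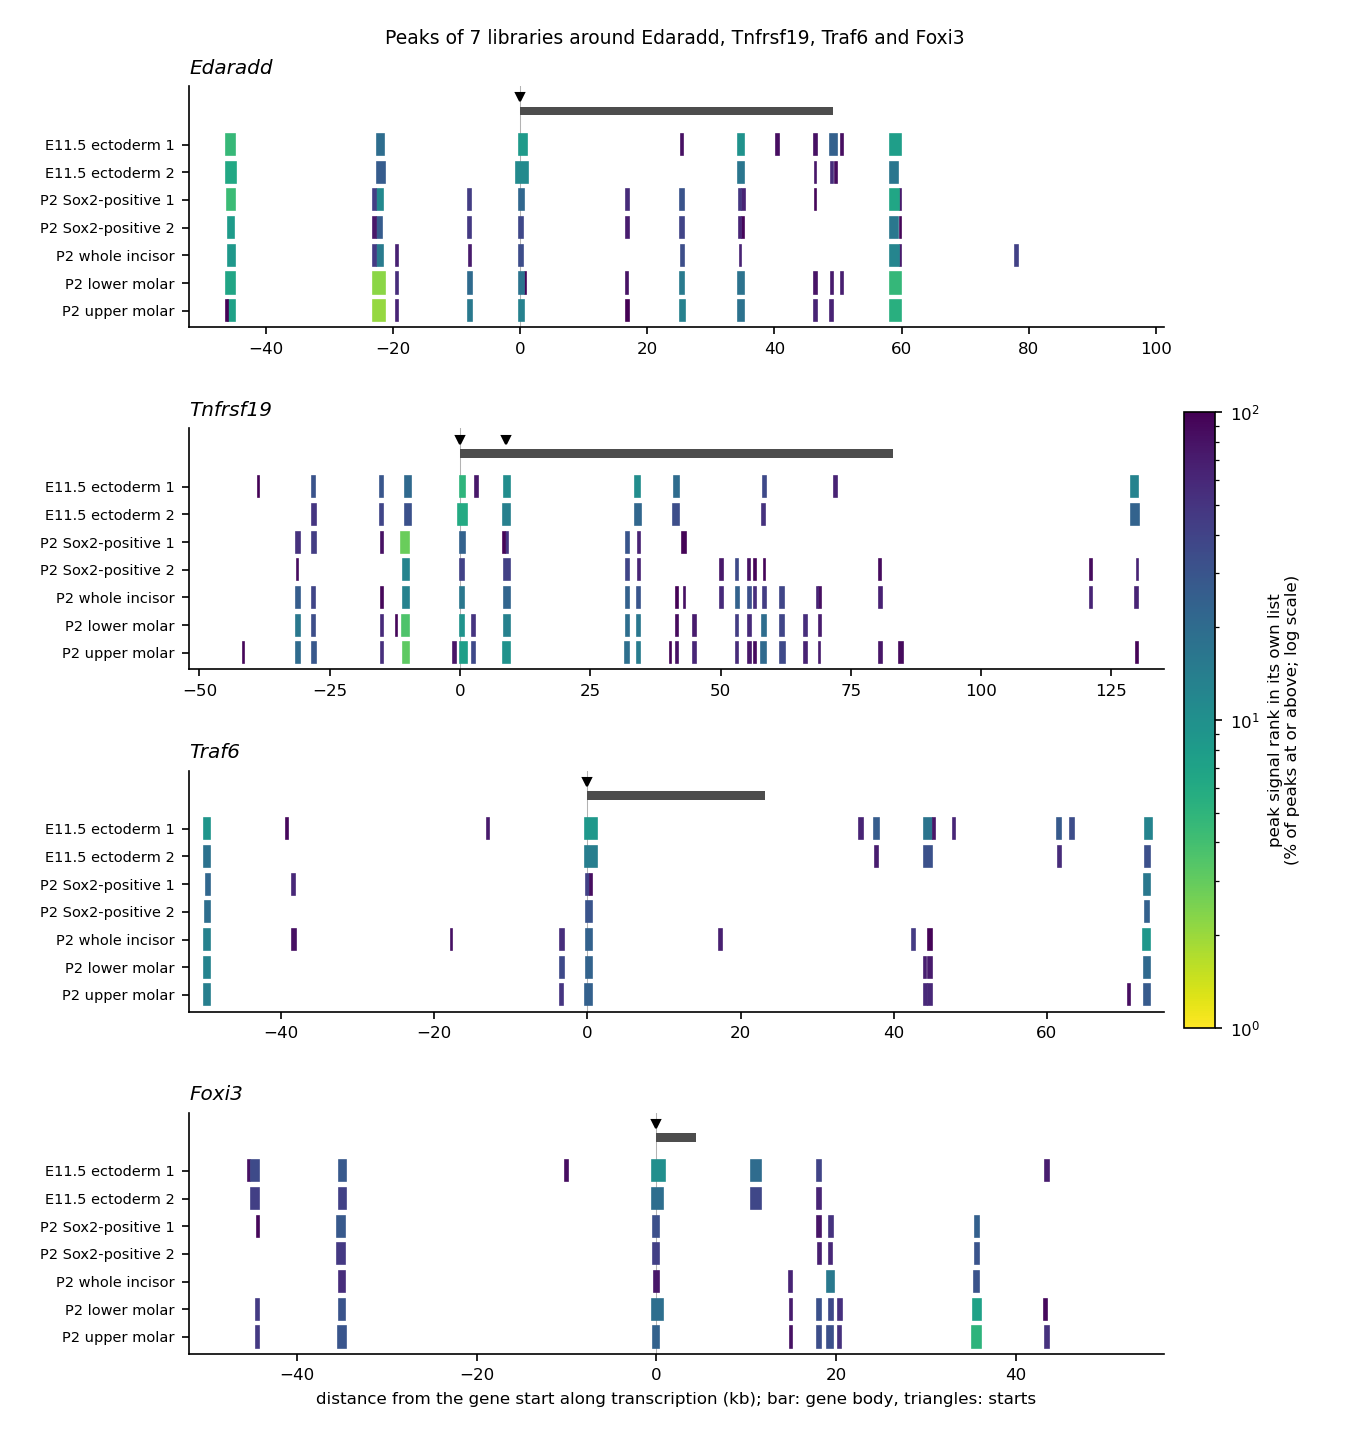
Peaks at Edaradd, Tnfrsf19, Traf6 and Foxi3 by distance in kb from each gene's start (x axis) in each of the 7 libraries (rows). Colour gives the rank of a peak's signal within its own list, as the percentage of peaks at or above it, on a log scale. Peaks narrower than a line are drawn at the line's width. At Foxi3 the regions at 19.4 and 35.6 kb are filled in the 5 postnatal rows only, and the region at 11.1 kb in the ectoderm rows only.

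**Figure D4:**
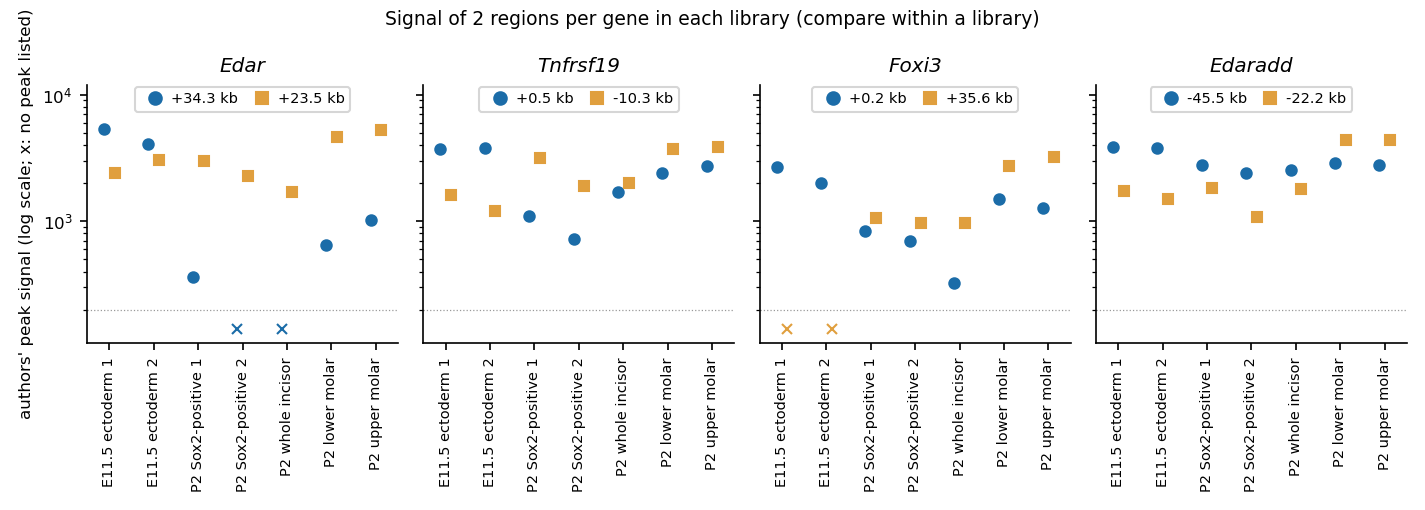
Signal of the leading regions of the genes in each of the 7 libraries, on a log scale, with a cross where a library listed no peak. At Edar the region at 34.3 kb lies above that at 23.5 kb in both ectoderm libraries and below it, or absent, in all 5 postnatal libraries.

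Of the 78 regions of the 5 genes seen in either ectoderm or Sox2-positive cells, 13 were in both ectoderm and neither Sox2-positive library (16.7%, against 23.2% of all regions). In lists of 38000 this was 12 of 60 (20%, against 18.6%), so the members' share moved from below to above the background with list length. By gene there were 7 at Edar, 3 at Traf6 and 1 at each of the other 3. The converse, a peak in each Sox2-positive replicate and no ectoderm peak, held for 10 of 78 (12.8%, against 7.68%) and, in lists of 38000, 11 of 60 (18.3%, against 14.3%). Edar had 4 of the 10, Edaradd, Tnfrsf19 and Foxi3 had 2 each, and Traf6 had none.

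All postnatal libraries and neither ectoderm library shared 8 of 99 regions (8.08%, against 4.61%), and 7 of 69 in lists of 38000 (10.1%, against 6.29%). Both ectoderm libraries and no postnatal library also shared 8 of 99 (8.08%, against 11.7%), and 11 of 69 in lists of 38000 (15.9%, against 12.8%). Both these classes lay away from gene starts, 8 of 8 in each. The share of such regions away from starts was not counted over the genome, so this has no background beside it. Regions open in all 7 libraries numbered 16 of 99 (16.2%, against 14.2%), or 14 of 69 in lists of 38000 (20.3%, against 19.2%), which is near the background. Of the 16, 6 were at the genes' own starts, 4 at starts of Lgals8, Ero1b, Gm41168 and Iftap, and 6 at no start. Median width was 1525 bp for these 16, 845.5 bp for the postnatal class and 572.5 bp for the ectoderm class, and over the genome 1357, 770 and 570 bp.

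**Figure D5:**
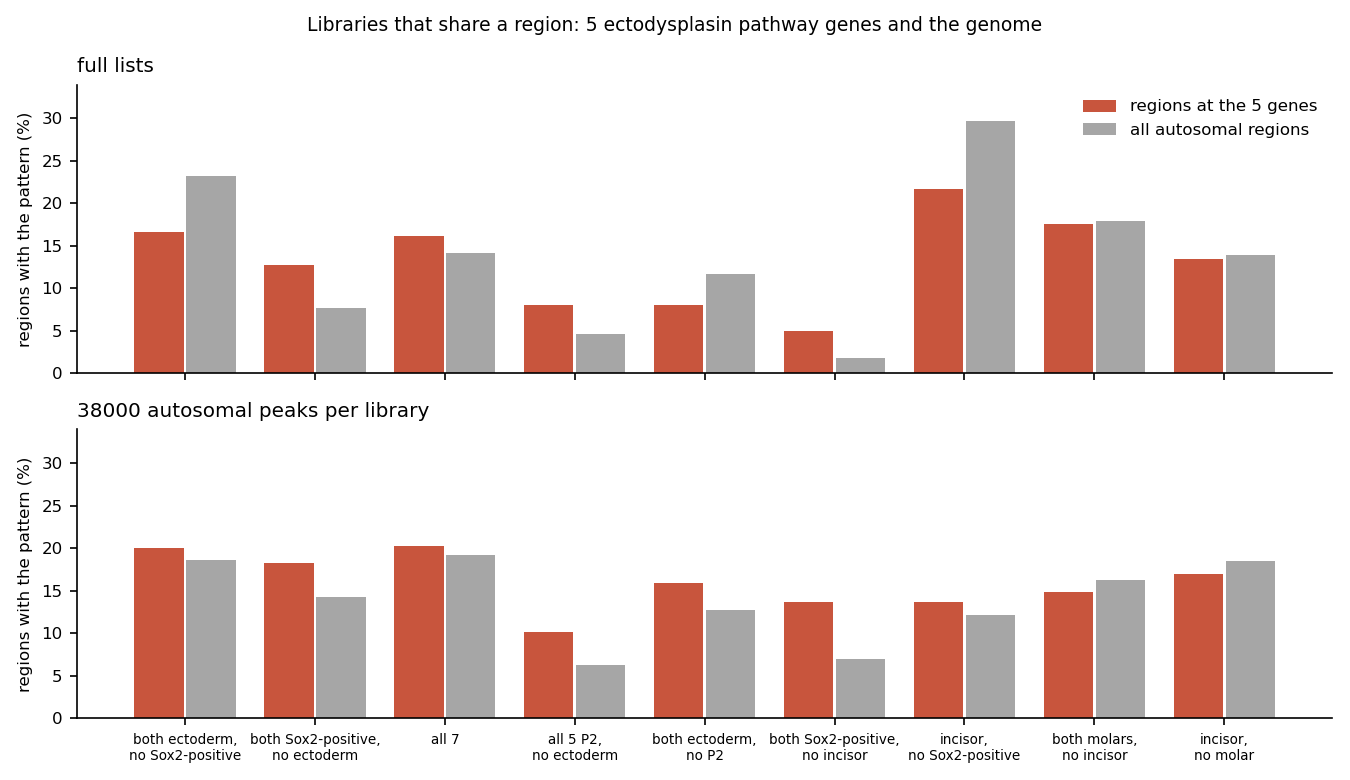
Percentage of the merged regions of the 5 genes that show each pattern across libraries, beside the percentage over all merged regions, for full lists and for 38000 peaks per library. For regions in both ectoderm and neither Sox2-positive library the members stand at 16.7% against 23.2% with full lists and at 20% against 18.6% with equal lists.

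Sox2-positive cells were also set beside the whole incisor. Peaks in both Sox2-positive libraries but not the incisor were found in 3 of 60 regions (5%, against 1.84%), and in 7 of 51 in lists of 38000 (13.7%, against 7.02%). The 3 were the Edar region at 50.6 kb, the Edaradd region at 16.9 kb and the Foxi3 region at 18.1 kb. The reverse, incisor without either Sox2-positive library, held for 13 of 60 (21.7%, against 29.7%) and 7 of 51 (13.7%, against 12.2%). Traf6 had 5 of the 13, and 2 of the 7 in lists of 38000. The whole incisor contains cervical loop cells among many others, and its 1 library gives no replicate check.

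Between teeth, 13 of 74 regions were in both molars and not in the incisor (17.6%, against 17.9%), and 7 of 47 in lists of 38000 (14.9%, against 16.3%). The incisor without either molar held 10 of 74 (13.5%, against 13.9%) and 8 of 47 (17%, against 18.5%). Both shares were near the background. In the full lists 4 of 9 Foxi3 regions were in molars alone and 4 of 10 Traf6 regions in the incisor alone. In lists of 38000 these were 3 of 8 and 1 of 5, the last of them 20% and near the background.

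The other genes of the pathway were read from a list of 34, of which 33 were found. Start peaks in all 7 libraries were present for 26 of 33, against 56.5% of autosomal genes with a listed start. In lists of 38000 this was 21 of 30 autosomal genes, against 52.4%. The counts that follow are from the full lists. All 9 NF-kB factors and inhibitors had them, and 8 of 9 signalling genes, with the start of Traf3 lacking a peak in Sox2-positive replicate 1. Among 13 target and placode genes 7 did. The genome shares cover listed starts alone, while many targets and some other pathway genes were taken at either gene end. The measures thus differ. Shh, which directs growth of the tooth epithelium, had a peak near a gene end in both ectoderm libraries and both molars and in neither Sox2-positive library nor the incisor. Fgf20, a placode growth factor, had one in both ectoderm libraries and in no other, and Dkk4, a secreted Wnt inhibitor, in ectoderm replicate 1 alone. These 3 genes have no listed start in the table used, and either gene end was taken. Around Shh the full lists held 6 and 4 peaks in ectoderm, 2 and 1 in the sorted cells, 1 in the incisor, 9 in the lower molar and 10 in the upper molar.

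The ligand gene Eda, on the X chromosome, had 5 and 3 peaks in ectoderm, 1 and 1 in the sorted cells, 1 in the incisor and 2 in each molar. Its start was open in all 7. Eda2r, the receptor for the other Eda splice form, also on X, had 2 and 2, 2 and 1, 3, 3 and 3 in the same order. More peaks in both ectoderm than in both Sox2-positive libraries were found for 16 of the 33 genes, and the reverse for Lrp4 alone, with 12 and 8 against 14 and 13. In lists of 38000, which hold autosomes only, these counts were 6 and 3 of 30. Lrp4 is a receptor that restrains Wnt signalling in teeth. The share of all genes with each order is given above with Traf6 and Edaradd.

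Genes most like each member were sought among autosomal genes with windows 0.8 to 1.2 times as long, by the summed absolute difference of peak counts over the 7 libraries at 38000 peaks each. Ties were broken by Pearson's r. The nearest to Edar was Xpo7 (summed difference 4, shared by Wdr62), to Edaradd Pfkfb4 (3, shared by Tcf3), to Tnfrsf19 Itpr3 (4), to Traf6 Pfkm (1) and to Foxi3 B3galt6 (2). The r of the counts was 0.95, 0.94, 0.98, 0.97 and 0.86 in that order, over 7 libraries that also share list length and calling. These genes were picked for closeness on the same counts, so a high r follows from the choice and is no separate evidence of likeness. The pool was 3703 genes for Edar, 6670 for Edaradd, 3193 for Tnfrsf19, 15749 for Traf6 and 12478 for Foxi3.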

How the data were processed

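The 7 libraries were Omni-ATAC preparations of genomic DNA. Per the submitters' processing notes, FastQC, Trimmomatic, Bowtie2, deepTools and Genrich were used with mm10 (GRCm38), and the notes give no versions. The authors deposited 1 peak list per library, with a signal value per peak, −log10 of the peak's p-value and a summit offset, in the column order of the narrowPeak format. The q-value field is -1 throughout, and read counts are not in the lists. Autosomal peaks sharing at least 1 bp were merged over the 7 libraries with Python 3.11.15, pandas 2.3.3 and numpy 2.4.6, and figures were drawn with matplotlib 3.10.9. The 38000 autosomal peaks with the largest deposited −log10 p per library served as lists of equal length. Gene spans came from RefSeq GRCm38.p6, and gene starts from its promoter table, with either gene end where a gene had no entry, and a start peak lay within 1 kb. Groups came from the sample labels. Named regions were those open in all libraries, those in both replicates of ectoderm or of Sox2-positive cells and neither of the other, and each group's region of highest signal. Other regions in the text were chosen after their values were seen. The 5 genes and the gene lists were chosen with earlier results of these data known. Nothing was tested for significance, because the lists hold called peaks without counts and an exact permutation test of 2 libraries against 2 cannot give a p below 0.333. Where replicates are compared, the spread may be technical. The merging was checked on simulated peaks. The epithelial list held a further gene that is not reported here. Alternatives were the selection by signal, the strictest 50% of peaks, windows of 0 and 100 kb, an overlap of 50%, windows of 200 bp around summits, each replicate left out, and, chosen after seeing the data, merging only the libraries compared and adding the signal of all peaks in a region.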

Additional observations from a re-analysis of the deposited data

How the results depend on the processing

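Of 96 alternative values, 69 were within 1.5 times the reported count and 27 were not. The reported counts were 1 gene with more ectoderm than Sox2-positive peaks, 13 ectoderm regions without Sox2-positive peaks, 10 of the reverse, 3 Sox2-positive regions without the incisor, 13 of the reverse, 13 molar and 10 incisor regions without the other, 16 in all libraries and 5 open starts. With 38000 peaks by p-value, Sox2-positive without incisor became 7, the reverse 7 and molar regions 7. By signal the first pair became 7 and 5. With the strictest 50% of peaks, genes with more ectoderm peaks became 2, Sox2-positive regions without ectoderm 3, those without incisor 1, incisor regions without molars 4 and open starts 3. With the gene body alone (0 kb), genes with more ectoderm peaks became 0, ectoderm regions 4, Sox2-positive regions 6, incisor without Sox2-positive 5, molar regions 8, incisor without molars 4, and all libraries 9. With 100 kb, ectoderm regions became 22 and Sox2-positive without incisor 5. Requiring 50% overlap gave 22 ectoderm regions, 6 Sox2-positive regions and 9 in all libraries. Summit windows gave 5 Sox2-positive regions without incisor. Leaving out each replicate gave 14 to 31 ectoderm regions (31 without ectoderm replicate 2), 10 to 16 Sox2-positive regions (16 without Sox2-positive replicate 1), 3 to 7 without incisor, 19 to 21 of the reverse and 16 to 18 in all libraries. The shorter lists, the gene body alone and the left-out replicates use fewer peaks or libraries, and the 100 kb window more. The cause of the shifts was not otherwise tested. No paired analysis was possible because the results are counts of called peaks and come from no test. Read depth is unknown, so a missing peak is not shown to be closed chromatin.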
